A study of Drosophila melanogaster with 6 samples.

Results

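The genes described here encode subunits of respiratory complexes II, III, IV and V in the adult Drosophila midgut. A gene is a member where its symbol in the deposited table begins with SdhA to SdhD, UQCR-, COX and a digit, ATPsyn, mt:Co, mt:Cyt-b or mt:ATPase, or equals Cyt-c1. The rule takes 47 of the table's 14026 genes. They fall into 35 genes for the subunits themselves, called core members here, and 12 paralogs whose symbols end in L. Of the core members 29 are nuclear, with 4 in complex II, 7 in complex III, 7 in complex IV and 11 in complex V, and 6 are encoded by the mitochondrial genome. The rule works on symbols, so it misses subunits with names of their own, such as the alpha subunit of ATP synthase.

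RNA was sequenced from midguts of wild-type Oregon-R flies in 3 groups of 2 libraries. Pe day 0 flies, 4 to 5 days old, had received the treatment that the labels call Pe without spelling it out. Pe day 3 flies had received Pe, were sampled at day 3 and were 7 to 8 days old. Mock flies, 4 to 5 days old, had received sucrose at day 0. The Pe day 3 flies are therefore set against Mock flies that differ from them in treatment, in day and in age at once, and no sucrose group of 7 to 8 days is among the samples. The labels do not say whether the libraries of a group came from separate dissections, so the spread behind the p-values is that between libraries and may be technical only.

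The table holds no values per library. Levels are therefore group values, rebuilt from the deposited mean and log2 fold changes, and errors are the standard errors (SE) of the fold changes. A level is given as normalized reads, which are reads divided by the size factors the authors' fit used, or as CPM, which are counts scaled to the same library total, and between genes only as CPM per kilobase of exon. The table's header does not name the groups of its 2 comparisons. They were read from the order of groups in the table's title as Pe day 0 against Mock and Pe day 3 against Mock. Estimated reads were 2.00e7 and 2.01e7 in the Pe day 0 libraries, 1.78e7 and 1.97e7 in Pe day 3, and 1.76e7 and 1.90e7 in Mock. Markers of enterocytes, the absorptive cells of the midgut, made up 2.84% of counts at Pe day 0, 4.46% at Pe day 3 and 4.76% in Mock. The labelled tissue was thus present in every group. Of this sum alphaTry, a trypsin gene, alone gave 20631 CPM at Pe day 0, 34457 at Pe day 3 and 40766 in Mock. On the CPM scale 3 of the 8 markers (mesh, nub and pdm2) were higher at Pe day 0 than in Mock. Another 3 (alphaTry, betaTry and LManI) were lower, so the fall of the sum does not hold for each marker.

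The respiratory chain sits in the inner mitochondrial membrane. Complex II, succinate dehydrogenase, takes electrons from succinate in the tricarboxylic acid cycle, complex III passes electrons from ubiquinol to cytochrome c, and complex IV, cytochrome c oxidase, passes them to oxygen. Complexes III and IV pump protons, and complex V, the ATP synthase, uses the proton gradient to make ATP. Complexes III, IV and V are built from subunits of both genomes, while complex II is encoded by nuclear genes alone. Many Drosophila subunits have an additional gene copy, and several of these copies are known as testis genes.

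At Pe day 0 all 35 core members were lower than in Mock, with a median log2 fold change of -0.77 and a range of -1.24 to -0.29 in the authors' deposited table. Lower here means an adjusted p under 0.05 (DESeq2 Wald test with Benjamini-Hochberg adjustment), and of the 10393 genes tested 23.6% were lower and 23.0% higher by that rule. The median of all genes tested was 0.03. At Pe day 3 none of the 35 passed the test against Mock in either direction. Between the Pe groups, 34 of 35 were higher at day 3 than at day 0. The exception was mt:ATPase8, at 0.72 (SE 0.55, adjusted p = 0.270).

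The day 0 count depends on how the libraries are scaled. Pe day 0 libraries had size factors of 1.42 and 1.43. Those of Pe day 3 had 0.815 and 0.902 and those of Mock 0.788 and 0.849, although read totals were alike. Scaling by library totals instead moves every day 0 log2 fold change up by 0.67, and the median of all genes to 0.69. On that scale 10 of the 35 core members were lower and 2 were higher (SdhA and SdhB, both 0.38), against 8.97% of all genes lower and 53.4% higher. The 10 were mt:CoI, mt:CoII, mt:CoIII, mt:Cyt-b, mt:ATPase6, COX5A, COX5B, COX6B, UQCR-6.4 and UQCR-14. With totals that leave out the 20 most abundant genes 17 were lower and none higher, against 11.9% and 45.4% of all genes. The core median was -0.10 with library totals. The core median lay below that of all genes by 0.80 in log2 units. Each scale moves every gene by the same amount, so this gap cannot change with the scale.

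Markers of several cell types moved with the members, among them those of visceral muscle, which wraps the gut. Of 12 muscle genes in the authors' deposited table, 11 were lower at Pe day 0, and the median was -1.19. None passed at Pe day 3, and 11 were higher at Pe day 3 than at Pe day 0. With library totals 7 were lower and 1 (Tm1, a tropomyosin also made outside muscle) was higher at day 0. All 12 were detected in every group, and their summed share of counts was 0.102% at Pe day 0, 0.104% at Pe day 3 and 0.0962% in Mock, of which Tm1 alone gave 595 CPM at Pe day 0, 376 at Pe day 3 and 326 in Mock. Markers of enteroendocrine cells, the hormone cells of the gut, moved the same way on the authors' scale. Of 7 such genes 6 were lower at Pe day 0 (median -0.78), 3 were higher at Pe day 3 (the authors' deposited table), and all 7 were higher at Pe day 3 than at Pe day 0. With library totals 2 were lower and 1 higher at day 0. They summed to 320.4 CPM at Pe day 0, 577 at Pe day 3 and 513 in Mock, with none at 0. Of 5 ovary and fat body markers tested, the yolk protein genes Yp1, Yp2 and Yp3 were lower at Pe day 0 (-2.05, -2.11 and -1.08, the authors' deposited table) and higher again between the Pe groups, and Yp1 and Yp2 passed with library totals too. That list of 6 summed to 124 CPM at Pe day 0, 278 at Pe day 3 and 273 in Mock, and Fbp1 was near 0. Of 4 haemocyte markers tested srp and Pxn were lower on both scales at Pe day 0 and none higher, and the list of 5 summed to 27.6 CPM at Pe day 0, 30.0 at Pe day 3 and 41.6 in Mock, with He near 0. Other lists were mixed at day 0 in the authors' deposited table, with 3 of 8 enterocyte markers higher and 5 lower, and 1 of 6 progenitor markers higher and 3 lower. Of 4 Malpighian tubule and hindgut markers tested 2 were higher and none lower, with byn at 0. Of all genes tested at day 0, 23.6% were lower and 23.0% higher with the authors' size factors. With library totals 8.97% of all genes were lower and 53.4% higher. At Pe day 3 against Mock 8.75% were higher and 8.92% lower with the authors' size factors. Between the Pe groups 27.4% were higher and 25.3% lower at day 3 on that scale. With library totals between the Pe groups, 8 of the 12 muscle genes were higher at day 3 and 1 lower. Of the 7 enteroendocrine genes 5 were higher and none lower, against 9.36% of all genes higher and 63.1% lower. The part of these markers in the members' changes was not tested. In whole-gut RNA, fewer cells of a type and less RNA per cell cannot be told apart.

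**Figure D1:**
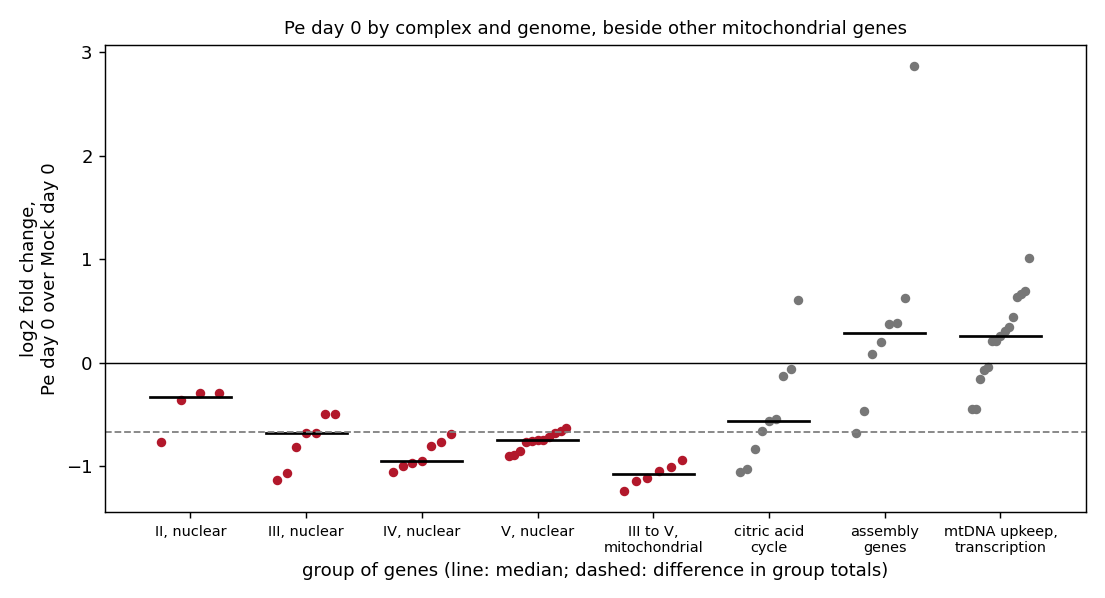
Log2 fold change of each gene (points) at Pe day 0 over Mock on the authors' size factors, with medians as short lines, core members in red, 3 groups of other mitochondrial genes in grey, and the difference in group totals (-0.67) dashed. Complex II lies mostly above the dashed line (median -0.33), and complex IV (median -0.95) and the mitochondrial genes (median -1.08) lie below it.

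The mitochondrially encoded subunits form the catalytic and proton-conducting centres of complexes III, IV and V. All 6 were lower at Pe day 0, with a median of -1.08 in the authors' deposited table. The subunits mt:CoI, mt:CoII and mt:CoIII make up the core of cytochrome c oxidase, with mt:CoI holding the site where oxygen is reduced. Normalized reads of mt:CoI were 141054 at Pe day 0 and 243625 at Pe day 3, against 290733 in Mock. The day 0 value was the lowest of the 3 groups, at 48.5% of Mock, and the log2 fold change in the authors' deposited table was -1.04 (SE 0.13, adjusted p = 2.76e-14). For mt:CoII, which takes electrons from cytochrome c, normalized reads were 29603 at Pe day 0 and 56907 at Pe day 3, against 65442 in Mock. Its day 0 log2 fold change was -1.14 (SE 0.10, adjusted p = 1.87e-27) in the authors' deposited table, the smallest adjusted p among the members. The structural subunit mt:CoIII stood at 96143 normalized reads at Pe day 0 and 185104 at Pe day 3, against 208530 in Mock. In the authors' deposited table it fell by 1.12 on the log2 scale at day 0 (SE 0.12, adjusted p = 1.70e-20).

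Cytochrome b, mt:Cyt-b, binds ubiquinone in complex III and is its sole mitochondrially encoded subunit. It had 59028 normalized reads at Pe day 0 and 107131 at Pe day 3, against 118773 in Mock, with a day 0 log2 fold change of -1.01 in the authors' deposited table (SE 0.12, adjusted p = 2.49e-15). The proton channel subunit of ATP synthase, mt:ATPase6, had 27434 normalized reads at Pe day 0 and 47499 at Pe day 3, against 52681 in Mock, and a day 0 log2 fold change of -0.94 in the authors' deposited table (SE 0.10, adjusted p = 1.25e-21). These 5 genes had the same order of groups, with Pe day 0 lowest and Mock highest. The small ATP synthase subunit mt:ATPase8 had 14.8 normalized reads at Pe day 0 and 24.4 at Pe day 3, against 34.96 in Mock. Its day 0 value of -1.24 in the authors' deposited table had a wide error (SE 0.54, adjusted p = 0.0466), and it did not pass with library totals. Its coding stretch of 162 bases shares 7 bases with mt:ATPase6 in the mitochondrial genome, and such reads may be assigned to either gene.

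Per length, the mitochondrial genes other than mt:ATPase8 stood far above the nuclear ones in every group. In CPM per kilobase mt:ATPase8 had 6.49 at Pe day 0, 6.90 at Pe day 3 and 9.67 in Mock, below every nuclear core member. With 162 exon bases it was the shortest core member, and what part this length has in its counted level was not tested. On the same scale mt:CoIII was highest with 8665 at Pe day 0, 10721 at Pe day 3 and 11840 in Mock, followed by mt:CoI with 6530 at Pe day 0, 7248 at Pe day 3 and 8480 in Mock. The highest nuclear members were ATPsynbeta, with 773 at Pe day 0, 753 at Pe day 3 and 817 in Mock, and ATPsynC, with 816 at Pe day 0, 746 at Pe day 3 and 810 in Mock. The lowest nuclear core members were ATPsyndelta, with 62.3 at Pe day 0, 57.6 at Pe day 3 and 65.8 in Mock, and UQCR-11, with 72.0 at Pe day 0, 62.5 at Pe day 3 and 63.9 in Mock. The length takes in all annotated exon bases of a gene, 3817 for ATPsyndelta, of which 1358 are shared with CG2962 on the opposite strand. Without division by length ATPsyndelta had 238 CPM at Pe day 0, above UQCR-6.4 with 52.0. The order of neighbours in these lists cannot be set against a spread between libraries, which the table does not give. The 6 mitochondrial members together held 2.51% of all counts at Pe day 0 and 2.93% at Pe day 3, against 3.30% in Mock. The 29 nuclear core members held 0.999% at Pe day 0 and 1.01% at Pe day 3, against 1.05% in Mock. The ratio of these sums, mitochondrial over nuclear, was 2.51 at Pe day 0, 2.90 at Pe day 3 and 3.14 in Mock. This ratio does not depend on the scaling of libraries, and its difference between groups was not tested.

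**Figure D2:**
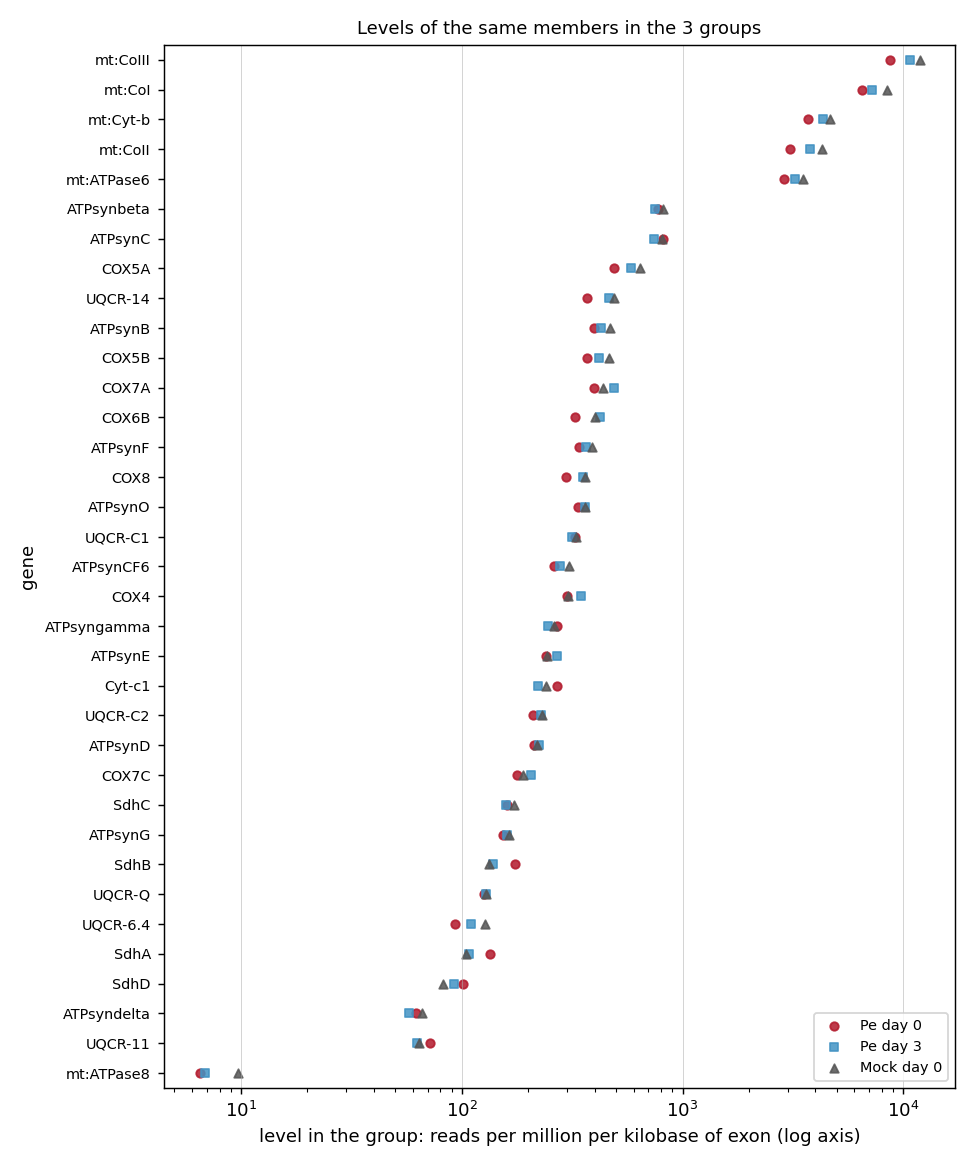
Level of each core member in CPM per kilobase of exon (log axis) at Pe day 0, Pe day 3 and in Mock, 1 value per group. Except for mt:ATPase8, the mitochondrial genes (2890 to 11840 CPM per kilobase over the groups) lie above every nuclear member, of which ATPsynbeta and ATPsynC are the highest.

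The 4 genes of complex II were all lower at Pe day 0 in the authors' deposited table, with a median of -0.33, the nearest to 0 of the nuclear groups. With library totals it was instead the farthest from 0, at 0.34, against -0.02 for complex III, -0.28 for complex IV and -0.08 for complex V. SdhA, the flavoprotein that oxidises succinate, had 5220 normalized reads at Pe day 0 and 6480 at Pe day 3, against 6385 in Mock, with a day 0 log2 fold change of -0.29 (SE 0.12, adjusted p = 0.0298, the authors' deposited table). SdhB, the iron-sulfur subunit, had 2973 at Pe day 0 and 3696 at Pe day 3, against 3631 in Mock, with -0.29 (SE 0.13, adjusted p = 0.0495, the authors' deposited table). Both catalytic subunits therefore lay near the threshold, and with library totals both were higher at Pe day 0. The membrane anchors SdhC and SdhD carry the ubiquinone site. SdhC had 2053 normalized reads at Pe day 0 and 3143 at Pe day 3, against 3503 in Mock. In the authors' deposited table it fell by 0.77 on the log2 scale at day 0 (SE 0.15, adjusted p = 1.84e-06). SdhD had 1281 at Pe day 0 and 1808 at Pe day 3, against 1648 in Mock, with a day 0 value of -0.36 (SE 0.14, adjusted p = 0.0252, the authors' deposited table). SdhC had the lowest value of the complex, and with library totals, where the other 3 were above 0, it stood at -0.10 and did not pass.

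The 7 nuclear members of complex III were all lower at Pe day 0, with a median of -0.68 in the authors' deposited table. The lowest values were those of the small accessory subunits UQCR-6.4 and UQCR-14. UQCR-6.4 had 732 normalized reads at Pe day 0 and 1358 at Pe day 3, against 1605 in Mock, with a day 0 log2 fold change of -1.13 (SE 0.16, adjusted p = 2.61e-12, the authors' deposited table). UQCR-14 had 2728 at Pe day 0 and 5305 at Pe day 3, against 5726 in Mock, with -1.07 (SE 0.14, adjusted p = 2.58e-13, the authors' deposited table). All 523 exon bases of UQCR-14 also lie in exons of CG32576 on the opposite strand, which itself stood at -1.15 in the authors' deposited table, and without strand in the counting their reads cannot be told apart. The core proteins UQCR-C1 and UQCR-C2 stood at -0.68 (SE 0.11) and -0.81 (SE 0.11) in the authors' deposited table. Cyt-c1, the haem subunit that hands electrons to cytochrome c, had 5794 normalized reads at Pe day 0 and 7368 at Pe day 3, against 8188 in Mock. Its day 0 log2 fold change of -0.50 (SE 0.11, adjusted p = 1.44e-05, the authors' deposited table) and that of the small subunit UQCR-11, -0.49 (SE 0.13), were the highest values of the complex. With library totals both stood at 0.17 and did not pass. The remaining nuclear member, UQCR-Q, stood at -0.68 in the authors' deposited table.

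In complex IV the 7 nuclear subunits, which surround the mitochondrially encoded core, had a median of -0.95 at Pe day 0 in the authors' deposited table, the lowest of the nuclear groups. COX5A had 5506 normalized reads at Pe day 0 and 10157 at Pe day 3, against 11458 in Mock, with a day 0 log2 fold change of -1.06 (SE 0.13, adjusted p = 1.53e-15, the authors' deposited table). COX5B, a zinc-binding subunit, had 3779 at Pe day 0 and 6645 at Pe day 3, against 7531 in Mock, with -0.99 (SE 0.14, the authors' deposited table). COX6B, which faces the intermembrane space, had 3606 at Pe day 0 and 7265 at Pe day 3, against 7043 in Mock, with -0.97 (SE 0.14, the authors' deposited table). These 3 passed on both scales. COX4, a subunit through which ATP inhibits the enzyme in mammals, had 5181 normalized reads at Pe day 0 and 9330 at Pe day 3, against 8353 in Mock. At -0.69 (SE 0.09, adjusted p = 3.23e-12, the authors' deposited table) it had the highest value of the complex. COX8, COX7A and COX7C, small membrane subunits, stood at -0.95, -0.80 and -0.76 in the authors' deposited table. Whether the nuclear members of complex IV and complex II differ in response was not tested beyond these values.

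The 11 nuclear members of complex V lay close together, between -0.90 and -0.63 at Pe day 0 with a median of -0.75 in the authors' deposited table. The catalytic subunit ATPsynbeta had 25937 normalized reads at Pe day 0 and 39304 at Pe day 3, against 43494 in Mock, with -0.75 (SE 0.12, adjusted p = 4.96e-09, the authors' deposited table). ATPsynC, whose product forms the turning membrane ring, had 21435 at Pe day 0 and 30478 at Pe day 3, against 33774 in Mock, with -0.66 (SE 0.13, the authors' deposited table). ATPsyngamma, the central shaft, had 5532 at Pe day 0 and 7836 at Pe day 3, against 8559 in Mock, and the highest value of the complex at -0.63 (SE 0.12, adjusted p = 5.93e-07, the authors' deposited table). The peripheral stalk, which holds the catalytic head still, held the lowest of the 11 values. Its subunit ATPsynB had 5145 normalized reads at Pe day 0 and 8628 at Pe day 3, against 9582 in Mock, with -0.90 (SE 0.15, adjusted p = 1.64e-08, the authors' deposited table). The other stalk subunits ATPsynCF6, ATPsynO and ATPsynD stood at -0.89, -0.76 and -0.72 in the authors' deposited table. The small membrane subunits ATPsynF, ATPsynG and ATPsynE stood at -0.85, -0.76 and -0.68, and ATPsyndelta of the central stalk at -0.75, in the authors' deposited table. None of the 11 passed in either direction with library totals.

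**Figure D3:**
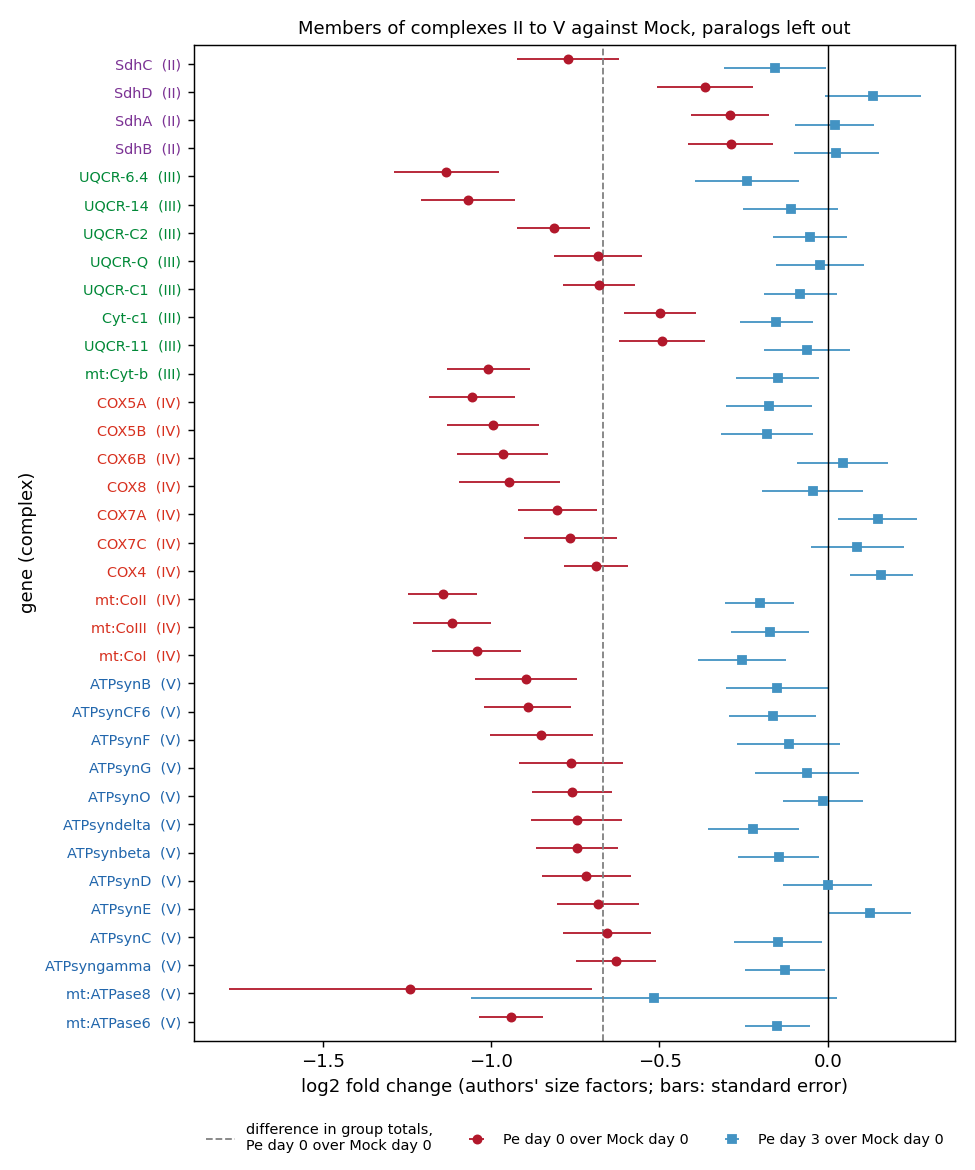
Log2 fold change at Pe day 0 (circles) and at Pe day 3 (squares) over Mock for the 35 core members by complex, with bars of 1 standard error; the dashed line at -0.67 is the day 0 difference in group totals. All circles lie left of 0, between -1.24 and -0.29, and all squares lie right of the circle of the same gene.

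At Pe day 3 none of the 35 passed the test in either direction, against 8.75% of the 8316 genes tested being higher and 8.92% lower. With library totals none passed either, against 9.72% higher and 8.04% lower, nor with totals that leave out the 20 most abundant genes, against 11.5% higher and 6.75% lower. The median over the nuclear core members was -0.06 and over the mitochondrial ones -0.19 in the authors' deposited table, against 0.01 over all genes tested. By complex the nuclear medians were 0.02 for complex II, -0.08 for complex III, 0.04 for complex IV and -0.13 for complex V in the authors' deposited table. One member, mt:CoII, had an unadjusted p under 0.05 (p = 0.0498, adjusted p = 0.187, DESeq2 Wald test, the authors' deposited table). Its log2 fold change of -0.20 had a 95% interval of -0.40 to -0.00018, and that of mt:CoI, -0.26, had an interval of -0.51 to 0.0036 in the authors' deposited table. The highest core member was COX4 at 0.16, with an interval of -0.03 to 0.35 in the authors' deposited table. The median SE of the core members was 0.13, and a p that misses the threshold does not show that a gene was at its Mock level.

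Set directly against each other, Pe day 3 was higher than Pe day 0 in all 29 nuclear core members and in 5 of 6 mitochondrial ones. Of all 8316 genes tested in this comparison 27.4% were higher and 25.3% lower. The median log2 fold change was 0.73 for the nuclear members, 0.83 for the mitochondrial members and -0.01 for all genes. This contrast was derived here from the deposited fold changes and standard errors, and it shares the Pe day 0 and Pe day 3 libraries with the other comparisons. By complex the nuclear medians were 0.41 for complex II, 0.66 for complex III, 0.88 for complex IV and 0.72 for complex V. The highest values were those of COX6B at 1.01 (SE 0.14, adjusted p = 8.01e-13) and UQCR-14 at 0.96 (SE 0.14, adjusted p = 6.81e-11). The lowest among those called were SdhA at 0.31 (SE 0.12, adjusted p = 0.0167) and SdhB at 0.31 (SE 0.13, adjusted p = 0.0273). With library totals 6 core members were higher (COX4, COX6B, COX7A, UQCR-14, mt:CoII and mt:CoIII) and 3 were lower (SdhA, SdhB and Cyt-c1), against 9.36% of all genes higher and 63.1% lower. With totals that leave out the 20 most abundant genes 20 were higher and none lower, against 14.1% and 51.2%.

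On the CPM scale the complexes thus parted from each other. The nuclear genes of complex II held 0.0820% of counts at Pe day 0 and 0.0691% at Pe day 3, against 0.0679% in Mock. Those of complex IV held 0.186% at Pe day 0 and 0.223% at Pe day 3, against 0.219% in Mock. Complex II was thus highest, and complex IV lowest, in the Pe day 0 group. Complex III held 0.178% at Pe day 0 and 0.177% at Pe day 3, against 0.185% in Mock. Complex V held 0.553% at Pe day 0 and 0.541% at Pe day 3, against 0.578% in Mock. The spread of these shares between libraries is not known.

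Among the 29 nuclear core members the day 0 change went with the length of the gene's exons. Spearman's rho between exon length and the day 0 log2 fold change was 0.68, so shorter genes lay lower. Across the same genes at day 3 it was -0.03, and within the 11 members of complex V at day 0 it was 0.50. Over all 10312 genes tested with a length it was 0.02. The 18 members under 1000 bases had a median of -0.83, against -0.18 for the 1732 genes of that length tested. The 11 members of 1000 bases or more had -0.66, against 0.06 for 8580 genes. Members thus lay below all genes in both classes. These genes share libraries and their level per kilobase was also related to the day 0 change (rho -0.46), and the part of length in the result was not tested.

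**Figure D4:**
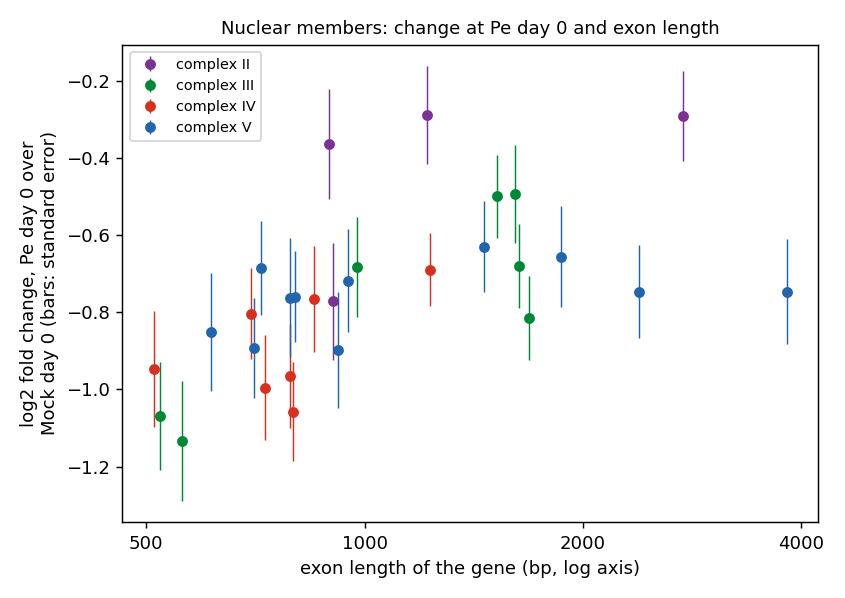
Day 0 log2 fold change over Mock (bars are the standard error) of the 29 nuclear core members against exon length in bases (log axis), coloured by complex. The green points at the lower left are UQCR-14 (-1.07) and UQCR-6.4 (-1.13), and the purple points at the top include SdhB and SdhA (both -0.29).

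Of the 35 core members 18 share exon bases with another annotated gene. The other 17 were all lower at Pe day 0, with a median of -0.77 in the authors' deposited table. The core members are spread over the genome (annotation BDGP6.54), with 3 genes on 2L, 5 on 2R, 6 on 3L, 11 on 3R, 1 on chromosome 4 (ATPsynbeta), 3 on X and 6 in the mitochondrial genome.

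The paralogs were near absent. Of the 12, SdhAL, UQCR-14L, ATPsynGL and ATPsynCF6L were listed at 0 in all libraries. COX5BL and SdhBL had a mean of 0.23 normalized reads over all libraries and were not tested. A further 5, ATPsynbetaL, COX4L, COX7AL, ATPsynepsilonL and COX6AL, had overall means between 1.36 and 4.25 normalized reads. None of the 5 passed the test at day 0 in the authors' deposited table. ATPsynbetaL (2.33, SE 1.37), COX7AL (4.34, SE 2.52), ATPsynepsilonL (2.36, SE 2.43) and COX6AL (2.51, SE 2.80) lay above 0 there. COX4L lay below, at -0.26 (SE 2.21). Of the 5, ATPsynbetaL, a copy of the catalytic subunit, passed as higher at Pe day 0 with library totals (adjusted p = 0.0461), on a mean of 4.25. The partners of the paralogs had means between 2046 normalized reads (UQCR-11) and 36245 (ATPsynbeta). COX6AL lies within Cyp4aa1, a cytochrome P450 gene on the same strand. COX5BL begins 122 bases from COX5B on 2L with no gene between them, so neighbours in the genome stood at 5985 and 0.23 normalized reads, or 8210 and 0.363 per kilobase. All 647 exon bases of COX5BL also lie in exons of Trmt6.

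Of 14 testis markers 6 were listed at 0, the Mst84D genes, ocn and aly, and the 14 summed to 0.490 CPM at Pe day 0, 0.198 at Pe day 3 and 0.0555 in Mock. Testis genes were thus at or near 0 in the same libraries in which these copies were.

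UQCR-11L, a copy of a small complex III subunit, had the highest overall mean of the paralogs, 40.1 normalized reads. Its estimated reads, summed over the 2 libraries of a group, were 19.8 at Pe day 0 and 86.8 at Pe day 3, against 103 in Mock. At Pe day 0 ATPsynbetaL stood higher, at 26.1 estimated reads. UQCR-11L had 6.93 normalized reads at Pe day 0 and 50.6 at Pe day 3, against 62.7 in Mock, and was thus 9.05-fold lower at Pe day 0. The log2 fold change was -3.18 (SE 0.52, adjusted p = 5.96e-09) at day 0 and -0.31 (SE 0.43, adjusted p = 0.738) at day 3 in the authors' deposited table. The day 0 value was -2.51 with library totals and still passed. Between the Pe groups it was 2.87 (SE 0.52, adjusted p = 1.80e-07) higher at day 3. Its partner UQCR-11 stood at -0.49 at day 0 in the authors' deposited table. UQCR-11L lies on 2R from 8677219 to 8677661 (BDGP6.54), within an intron of Acsl, a long-chain acyl-CoA synthetase gene on the same strand. Acsl had an overall mean of 20339 normalized reads and a day 0 log2 fold change of -1.98 (SE 0.12) in the authors' deposited table. What part Acsl RNA has in the value of UQCR-11L was not tested.

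**Figure D5:**
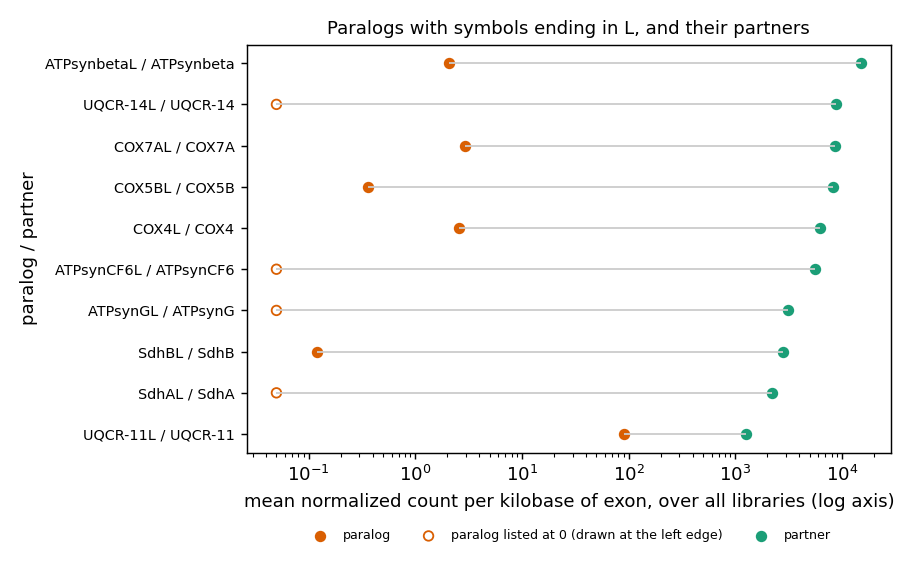
Mean normalized reads per kilobase of exon over all libraries (log axis) for 10 of the paralogs and their partners; open points at the left edge were listed at 0. UQCR-11L is the highest paralog, at 90.4 against 1269 for UQCR-11, and the other paralogs lie at or below 2.94.

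A further 7 genes carry symbols of this kind in annotation BDGP6.54 but older symbols in the table, and are not members. COX7B (CG7630) stood at -0.82 at day 0 (SE 0.16, adjusted p = 1.93e-06, the authors' deposited table). COX7CL (CG44296), next to COX7C on 2R, went the other way with 3.48 at day 0 (SE 0.65, adjusted p = 4.78e-07) and -2.53 at day 3 (SE 1.20, adjusted p = 0.146) in the authors' deposited table, on an overall mean of 27.7 normalized reads. COX7AL2 (CG34172) stood at -3.11 at day 0 (SE 1.30, adjusted p = 0.0369, the authors' deposited table), on a mean of 6.08. UQCR-6.4L (CG43206) did not pass, and SdhCL, COX6AL2 and COX6CL were listed at 0.

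Of the subunits and carriers with names of their own, 6 were tested. Of these 6, 5 passed as lower at Pe day 0 in the authors' deposited table. These were the Rieske iron-sulfur protein RFeSP (-0.76), the complex III subunit ox (-1.07), the complex IV subunits levy (-0.78) and cype (-0.88) and the ATP synthase epsilon subunit sun (-1.05). With library totals 2 of the 6, ox and sun, were lower and none higher. Cyt-c-p, the cytochrome c that carries electrons between complexes III and IV, differed. It had 674 CPM at Pe day 0 and 376 at Pe day 3, against 567 in Mock. Its log2 fold change was -0.42 at day 0 (SE 0.20, adjusted p = 0.0768) and -0.62 at day 3 (SE 0.20, adjusted p = 0.0156) in the authors' deposited table, so it was lower than Mock at day 3, where no core member was. In complex I, 31 of 32 nuclear genes and 5 of 7 mitochondrial genes tested were lower at Pe day 0, with medians of -0.82 and -0.95 in the authors' deposited table. On library totals 5 of the 32 were lower and 2 higher, and 2 of the 7 were lower and none higher. Of all genes 8.97% were lower and 53.4% higher on that scale.

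Of 8 genes listed for assembly and tested, 2 were higher and 2 lower at Pe day 0 in the authors' deposited table. Of all genes 23.0% were higher and 23.6% lower, so these counts lay near the shares of all genes. The higher ones were Ttc19, which acts in complex III assembly (0.63), and ttm2 (2.87, SE 0.91). The level of ttm2 was low, at 1.92 CPM at Pe day 0 and 0.158 at Pe day 3, against 0.166 in Mock. Its part in assembly was not tested. The lower ones were CG13865 (-0.47) and CG14806 (-0.68), and 4 did not pass, in the authors' deposited table. Scox, a copper chaperone of complex IV, had 50.8 CPM at Pe day 0 and 23.2 at Pe day 3, against 30.1 in Mock. It stood at 0.09 (SE 0.14) at day 0 and was lower at day 3 (-0.40, SE 0.15, adjusted p = 0.0387) in the authors' deposited table. Scox was the 1 gene called of 7 tested at day 3, against 8.92% of all genes lower and 8.75% higher. With library totals, or totals that leave out the 20 most abundant genes, none of the 7 passed at day 3. On library totals 6 of the 8 were higher at day 0 and none lower, against 53.4% and 8.97% of all genes.

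Of 15 genes for upkeep and transcription of mitochondrial DNA or for nuclear control of mitochondria, 4 were higher and 2 lower at Pe day 0 in the authors' deposited table, with a median of 0.26. The higher ones were tam and DNApol-gamma35, the subunits of the mitochondrial DNA polymerase (0.63 and 0.67), the transcription factor mtTFB2 (1.01) and mTerf5 (0.69). The lower ones were the mitochondrial RNA polymerase mtRNApol (-0.44, adjusted p = 0.0361) and ewg (-0.45), the fly relative of nuclear respiratory factor 1. TFAM, which packages mitochondrial DNA, did not pass at 0.21 (SE 0.12, the authors' deposited table). At Pe day 3 none of the 15 was higher, and mtSSB (-0.74), srl, the fly relative of PGC-1 (-0.59), and mtTFB1 (-0.38) were lower in the authors' deposited table. Between the Pe groups 9 of the 15 were lower and 1 higher at day 3, against 25.3% and 27.4% of all genes. Of the 35 core members 34 were higher. With library totals 12 of the 15 were higher at Pe day 0 and none lower, against 53.4% and 8.97% of all genes. With the authors' size factors those shares of all genes were 23.0% and 23.6%.

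In the tricarboxylic acid cycle, which feeds the chain, 6 of 9 genes were lower and 1 higher at Pe day 0 in the authors' deposited table, with a median of -0.56. Citrate synthase kdn stood at -1.06 (SE 0.16) and aconitase Acon at -1.03 (SE 0.16), while skap, a succinyl-CoA ligase subunit, was higher at 0.60 (SE 0.13), in the authors' deposited table. Sucb, another succinyl-CoA ligase subunit, did not pass at -0.13 (SE 0.17, adjusted p = 0.577, the authors' deposited table). With library totals both skap (1.27) and Sucb (0.54) were higher at day 0. Of 6 carriers of ATP, ADP and phosphate, the ATP/ADP carrier sesB, with 2548 CPM at Pe day 0 and 1614 at Pe day 3, against 2377 in Mock, was lower at day 0 (-0.57, SE 0.12) and at day 3 (-0.59, SE 0.12) in the authors' deposited table. Its low-level relative Ant2 was higher at day 0 at 1.84 (SE 0.27, the authors' deposited table), with 16.5 CPM at Pe day 0 and 2.36 at Pe day 3, against 2.90 in Mock. The phosphate carriers Mpcp2 (-0.66) and Mpcp1 (-1.59) were lower, Porin2 was higher (4.04) and porin did not pass (-0.01), at day 0 in the authors' deposited table. Of 7 genes for uncoupling and for the choice between respiration and glycolysis, Pdk, the kinase that shuts off pyruvate dehydrogenase, was lower at day 0 (-2.50, SE 0.24), and ImpL3, lactate dehydrogenase, was higher (0.58, SE 0.19), in the authors' deposited table. Among the uncoupling carriers Ucp4A (-0.69) was lower, and Bmcp (0.47) and Ucp4B (2.75) were higher, at day 0 in the authors' deposited table. The overall mean of Ucp4B was 9.89 normalized reads. Gpo-1 and Etf-QO did not pass. On library totals 3 of the 9 cycle genes were higher and 2 lower, and 3 of the 6 carriers were higher and none lower. Of the 7 genes for uncoupling and glycolysis 5 were higher and 1, Pdk, lower, and Ucp4A did not pass at -0.03. Of all genes 53.4% were higher and 8.97% lower on that scale.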

How the data were processed

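RNA from midguts was sequenced in 3 groups of 2 libraries. Tools named in the submitters' processing notes are DESeq2 1.22.0, Salmon 0.11.3, fastp 0.19.5 and CASAVA 1.8, with the build BDGP6. Options, strand setting and annotation release: not given in the sources used here. Per the file headers, the table deposited by the authors has per gene the mean signal of the libraries after division by size factors. Each of its 2 comparisons has columns for the log2 fold change, the standard error, the Wald score, and the p-value before and after adjustment, per the file headers. A count test had been planned as an option, but the table holds no counts per library, so the deposited DESeq2 Wald tests with Benjamini-Hochberg adjustment over all genes the authors kept were used, at a threshold of 0.05.

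Size factors were read from genes with 1 read in 1 library and none in the others. Group levels were solved from the mean and the fold changes. The dispersion behind each standard error, solved from both comparisons, agreed within 0.988 to 1.01 in the central genes. It gave the variance of Pe day 3 over Pe day 0, a Wald test adjusted over the 8316 genes tested in both comparisons. Scripts ran in Python 3.11.15 with numpy 2.4.6, pandas 2.3.3 and scipy 1.17.1. The derived test was also run on simulated counts. These were drawn with the same size factors and dispersions, so that run cannot show error in either. Exon lengths and positions come from the annotation BDGP6.54.

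The lowest means tested were 1.24 normalized reads at day 0 and 20.8 at day 3. Of the members, 41 were tested at day 0 and 36 at day 3. The members and all gene lists were chosen with earlier results of these data known, and lists are described by counts and medians, without a test. Members described in full were the catalytic or core subunits, the largest and smallest changes of each complex, the mitochondrial genes and the paralogs. Other genes come from the lists alone, except genes that overlap a member and genes renamed since, which were named after their values were seen, as was the list of core members without exon overlap. Alternatives were library totals, totals without the 20 most abundant genes, adjustment over every gene with a p-value or over genes of at least 5 CPM, a threshold of 0.01 and, for the derived comparison, a standard error that ignores the shared Mock group.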

Additional observations from a re-analysis of the deposited data

How the results depend on the processing

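The scale of the libraries decided the counts in both comparisons with Pe day 0. Core members lower at Pe day 0 than in Mock numbered 35 with the authors' size factors, 10 with library totals and 17 with totals without the 20 most abundant genes, and those higher 0, 2 and 0. The day 0 median moved to -0.093 and -0.26 for nuclear and to -0.41 and -0.59 for mitochondrial members under the 2 totals. Core members higher at Pe day 3 than at Pe day 0 numbered 34, then 6 and 20, and those lower 0, then 3 and 0. That median moved to 0.091 and 0.30 for nuclear and to 0.19 and 0.40 for mitochondrial members. The alternatives move every gene by the same amount, so the differences between members stay as they are.

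At day 0 library totals turned the sign of SdhA (0.38), SdhB (0.38), SdhD (0.30), Cyt-c1 (0.17), UQCR-11 (0.17), ATPsyngamma (0.037), ATPsynC (0.011) and COX4L (0.41), and totals without the 20 most abundant genes that of SdhA (0.20), SdhB (0.21), SdhD (0.13), UQCR-11 (0.0018) and COX4L (0.24). At day 3, where none passed, they turned ATPsynD (0.028), ATPsynO (0.014) and UQCR-Q (0.0048), and ATPsynG (0.0098), ATPsynD (0.071), ATPsynO (0.056), UQCR-Q (0.047), UQCR-C2 (0.019), UQCR-11 (0.011) and COX8 (0.026). For Pe day 3 over Pe day 0 they turned SdhA (-0.33), SdhB (-0.32), Cyt-c1 (-0.29), UQCR-11 (-0.21), SdhD (-0.14), ATPsyngamma (-0.14), ATPsynC (-0.13), ATPsyndelta (-0.11), ATPsynbeta (-0.038), UQCR-C1 (-0.040) and SdhC (-0.023), and SdhA (-0.11), SdhB (-0.11) and Cyt-c1 (-0.077).

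With adjustment over every gene with a p-value 33 of 35 core members were lower at day 0. With at least 5 CPM all 34 core members tested were lower, since mt:ATPase8, at 1.57 CPM in Mock, was left out. At an adjusted p of 0.01 the count was 31 of 35. Between the Pe groups these settings gave 34 of 35, 34 of 34 and 32 of 35 higher. The standard error that ignores the shared Mock gave 31 of 35. At day 3 the count was 0 under each of these settings and both totals. Leaving out single libraries could not be run, since the table holds no values per library. No paired analysis was possible because the table holds no values per library. The spread between libraries is thus known only through the fitted standard errors.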
